A study of Homo sapiens with 2 samples.

Results

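AMPD3, AADAC, SEMA4A, TESK2, GEM, NFATC2, TRIB1 and LUCAT1 are 8 of the 36601 genes counted in endothelial cells that lined small perfused channels. They were picked because their summed level was higher when some of the perfused red cells had been dehydrated, and because they lie outside the classic immediate early set (EGR1, FOS, JUN and their like). The difference between the libraries is therefore how the genes were found, and it is given here as a description. What was not used to pick them is which cells carried their transcripts, and in particular whether those were the cells that carried EGR1. The choice and this overlap are still not independent, because EGR1 was itself higher in the same comparison.

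The cells were HUVECs (endothelial cells that come straight from the vein of the human umbilical cord), grown for about 48 hours into a closed layer inside devices with 50 µm channels. Healthy red blood cells alone (hRBC) flowed over one layer for 4 hours. Over the other flowed a mixture in which 5% of the red cells were pharmacologically dehydrated (5% pdRBC), made from healthy cells with nystatin and washes of high sucrose to a mean hemoglobin concentration of 40 to 42 g/dL to imitate the poor deformability of sickle red cells. Each group is 1 droplet-based 5′ single-cell library, so the groups differ by library as well as by treatment, and the 2 cannot be told apart. Donors, cultures and devices behind a library are not named. Cells of 1 library are not replicates, so no p-value is given, and every 95% interval covers counting error only.

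The 8 genes are an assortment by function. AMPD3 codes for an AMP deaminase, best known from red cells, which turns AMP into IMP and so takes adenine nucleotides out of the energy pool. AADAC codes for a hydrolase of the endoplasmic reticulum that cleaves drugs and is known mainly from liver and gut. SEMA4A codes for a membrane semaphorin that signals through plexins, receptors that also guide vessel growth. TESK2 codes for a kinase of cofilin, the factor that severs actin filaments, and GEM for a small GTPase that restrains voltage-gated calcium channels. NFATC2 is a transcription factor that calcineurin sends to the nucleus when calcium rises. TRIB1 codes for a pseudokinase that brings C/EBP factors to the ubiquitin ligase COP1, and LUCAT1 is a long noncoding RNA of stress and interferon responses. Immediate early genes, with which the 8 are compared below, respond to a stimulus such as flow in minutes, without any need for new protein, and code mostly for transcription factors.

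In GRCh38, AMPD3 spans chr11:10308313-10507579 on the plus strand, AADAC chr3:151814037-151828488 (plus), SEMA4A chr1:156147366-156177752 (plus), TESK2 chr1:45343883-45491166 (minus) and NFATC2 chr20:51386957-51562831 (minus). LUCAT1 spans chr5:91054834-91314547 (minus). The genes other than LUCAT1 are protein-coding. Overlapping genes matter for 3 of them, because whether counting used strand is not given in the sources used here. AADAC lies inside AADACL2-AS1, which runs on the opposite strand and shares no exon with it. AADACL2-AS1 itself gave 119 UMIs (unique molecular identifiers, each a counted RNA molecule) in the hRBC library and 324 in the 5% pdRBC library. An exon of TESK2 overlaps one of TOE1 on the other strand, where TOE1 gave 40 and 39 UMIs, against 34 and 166 of TESK2. LUCAT1 overlaps ADGRV1, with 8 and 12 UMIs, without a shared exon, and AC123595.1 on its own strand, with 12 and 18 UMIs and likewise no shared exon. Reads of these genes and of their overlapping neighbours therefore cannot be fully told apart.

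Since the genes move together, the 250 bases before their annotated starts were searched on both strands for 5 short motifs, chosen after the sequences had been seen. RefSeq (GRCh38.p14) gave 13 windows for 6 of the 8 genes. The stretches below show each motif found, in capitals, with 30 bases on either side. TGACG is the core of a cyclic AMP response element, TGANTCA binds AP-1 (FOS and JUN dimers), GCGNGGGCG is an EGR1-type site and TGACNNNGC is the core of the antioxidant response element. In NFATC2 start 1 the capitals hold both TGACG and the antioxidant core on the minus strand, and in LUCAT1 they hold the antioxidant core (minus strand) overlapping TGAGTCA.
TESK2, chr1:45491230-45491294, minus strand: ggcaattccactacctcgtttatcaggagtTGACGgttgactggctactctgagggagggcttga
LUCAT1, chr5:91314418-91314486, minus strand: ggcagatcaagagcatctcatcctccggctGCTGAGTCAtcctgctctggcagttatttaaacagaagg
AMPD3 start 2, chr11:10455049-10455115, plus strand: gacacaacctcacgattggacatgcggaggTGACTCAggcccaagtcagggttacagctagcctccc
NFATC2 start 1, chr20:51562971-51563039, minus strand: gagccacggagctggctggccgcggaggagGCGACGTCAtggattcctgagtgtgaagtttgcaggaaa
NFATC2 start 2, chr20:51542764-51542832, minus strand: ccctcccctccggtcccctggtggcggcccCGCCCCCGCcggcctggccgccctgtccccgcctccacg

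These motifs are common. Of 35116 RefSeq promoters of the same length, 6.57% hold TGANTCA, 21.2% TGACG, 8.41% GCGNGGGCG, 10.9% TGACNNNGC and 1.16% a CArG box, the site of serum response factor. TGANTCA was in 2 of the 13 windows, TGACG in 2, the antioxidant core in 2, the EGR1-type site in 1 and a CArG box in 0, and the windows of SEMA4A and AADAC held none of the 5. The AMPD3 motif lies before a RefSeq start, and a short sequence just after that start was not found in the AMPD3 transcripts of GENCODE release 29. The positions of RefSeq and GENCODE starts were not compared. The LUCAT1 stretch lies within an exon of other LUCAT1 transcripts. A match is only a run of letters, and binding was not measured.

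The libraries differed in depth, which bears on every share of cells below. After the cell filter (at least 1000 UMIs and 500 genes, and no more than 20% mitochondrial UMIs) the hRBC library held 2555 cells with 13335148 UMIs, at a median of 2175 per cell. The 5% pdRBC library held 1601 cells with 16127985 UMIs, at a median of 9566. The filter left out 33.8% of the hRBC barcodes and 2.08% of the 5% pdRBC barcodes. An endothelial marker such as PECAM1, CDH5 or VWF was found in 99.7% and 99.9% of the kept cells, all 10 markers were detected in both libraries, and they summed to 4029 and 3811 CPM (UMIs per 1000000 UMIs of the library). Red cells, in which AMPD3 is well known, left 12 UMIs of HBB among hRBC cells and 0 among 5% pdRBC cells, and HBA1, HBA2 and ALAS2 were at 0 in both. Of the 8 T and NK cell markers, relevant to NFATC2, CD3E, CD3D, CD2 and NKG7 were at 0 in both libraries. The list summed to 189 and 196 UMIs, nearly all of them from IL7R (141 and 142) and TRAC (46 and 45), with 2 and 6 of PTPRC and 0 and 3 of GNLY, and their part in the results was not tested. A total of 9 barcodes occurred in both libraries, 6 of them among the kept cells. Without these, the median log2 fold of the 8 genes was 1.65, against 1.63 with them.

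By summed UMIs AMPD3 and AADAC stood furthest apart between the libraries, on few molecules. AMPD3 gave 14 UMIs in the hRBC library and 112 in the 5% pdRBC library, which is 1.05 and 6.94 CPM. Its fold, with 0.5 UMIs added to each sum, was 6.42 (95% interval 3.78 to 12.5), and among the 11043 genes with 100 or more UMIs only EGR1, at 7.87-fold, ranked above it. AADAC gave 14 and 98 UMIs, or 1.05 and 6.08 CPM, a fold of 5.62 (3.29 to 10.98). The order among the scarce genes depends on how cells are weighted. With every cell weighted equally the log2 fold was 1.91 for AMPD3, 2.31 for AADAC and 2.53 for SEMA4A, and with cells thinned to 2000 UMIs it was 3.69 for AMPD3, 2.25 for AADAC and 2.67 for TESK2, against 2.68 for AMPD3 in the full sums. AMPD3 and AADAC code for enzymes that HUVECs transcribe at the edge of detection: in the hRBC library 14 of 2555 cells held an AMPD3 UMI and 11 an AADAC UMI.

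SEMA4A gave 22 UMIs in the hRBC library and 123 in the 5% pdRBC library (1.65 and 7.63 CPM), a fold of 4.54 (2.92 to 7.65). TESK2, the cofilin kinase, gave 34 and 166 UMIs (2.55 and 10.3 CPM), a fold of 3.99 (2.78 to 6.02). In both genes the intervals of the 2 levels lay well apart.

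The remaining 4 genes were present in more cells and differed by about the same factor. GEM stood at 11.5 CPM in the hRBC library (154 UMIs) and 28.0 CPM in the 5% pdRBC library (451 UMIs), a fold of 2.42 (2.01 to 2.93). It spans chr8:94249253-94262350 on the minus strand. LUCAT1 stood at 10.9 and 23.3 CPM (145 and 375 UMIs), a fold of 2.13 (1.76 to 2.61). For NFATC2 the levels were 19.05 and 39.7 CPM (254 and 640 UMIs), a fold of 2.08 (1.80 to 2.42). TRIB1 was nearly identical to NFATC2 in fold, with 19.3 and 40.1 CPM on 257 and 646 UMIs, a fold of 2.08 (1.80 to 2.41). It spans chr8:125430321-125438405 on the plus strand.

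**Figure D1:**
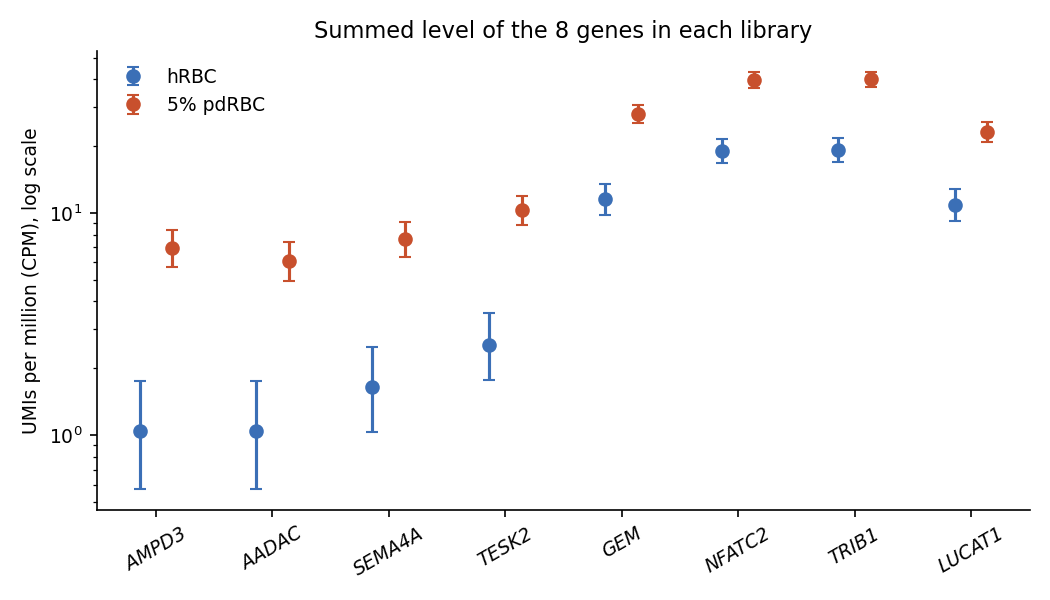
Level of each gene, in CPM on a log axis, summed over all kept cells of the hRBC library (blue) and the 5% pdRBC library (red). Bars are exact 95% counting intervals. Within each gene the intervals do not overlap, and the distance is widest for AMPD3 (1.05 and 6.94 CPM) and narrowest for TRIB1 (19.3 and 40.1 CPM).

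At least 2-fold higher, with an interval that leaves out 1, were 30 of the 11043 genes (0.272%): the 8 chosen genes, 7 immediate early genes and 15 others. Because the 8 were taken from the top of this comparison, their count says nothing further. The values nearest to 2-fold among the chosen were those of TRIB1 and NFATC2 (both 2.08), and the first genes below 2-fold were TNFSF15 (1.99) and JUN (1.98). The median log2 fold was 1.63 for the 8 and 0.02 for all measured genes.

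The gap was also seen among cells of like depth. In cells with 10000 or more UMIs (538 hRBC and 726 5% pdRBC cells) the folds were 7.74 (3.96 to 19.6) for AMPD3, 5.44 (2.91 to 12.3) for AADAC, 4.02 (2.47 to 7.24) for SEMA4A and 5.05 (3.21 to 8.72) for TESK2. There GEM was at 2.66 (2.15 to 3.33), TRIB1 at 2.56 (2.12 to 3.10), NFATC2 at 2.13 (1.78 to 2.57) and LUCAT1 at 2.12 (1.68 to 2.73). All 8 intervals lay above 1 in that band, beside 14.7% of the genes measured there. Between 5000 and 9999 UMIs 6 did so (not those of TESK2 and TRIB1), beside 7.24%, with 1 hRBC UMI each for AMPD3, AADAC and SEMA4A. Between 2000 and 4999 UMIs 5 did so, beside 17.2%. These were AMPD3 (0 and 5 UMIs), TESK2 (6 and 8), NFATC2 (30 and 23), TRIB1 (38 and 25) and LUCAT1 (10 and 13). All 5 sums are under the 100 UMIs of a measured gene, so the 17.2% comes from better counted genes. Below 2000 UMIs, where the 5% pdRBC library held 44 cells, 0 did so, beside 15.2%. These counts come from the contrast on which the genes were picked.

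Unequal depth inflates the share of cells in which a gene is seen. Without correction 0.548% of hRBC cells and 3.75% of 5% pdRBC cells held an AMPD3 UMI, and 8.14% and 23.8% a TRIB1 UMI. Each cell of 2000 or more UMIs was therefore thinned at random to exactly 2000, which left out 1180 hRBC and 44 5% pdRBC cells and kept 1375 and 1557. At that depth AMPD3 was detected in 0.145% (exact interval 0.0176 to 0.524) of hRBC cells and 1.61% (1.04 to 2.36) of 5% pdRBC cells. TESK2 was detected in 0.291% (0.0793 to 0.743) and 1.67% (1.09 to 2.44), and SEMA4A in 0.218% (0.0450 to 0.636) and 1.16% (0.687 to 1.82). Thus all 3 of these were rare in both libraries and rarer with hRBC.

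The more widespread genes differed less. LUCAT1 was detected in 1.75% (1.12 to 2.59) of hRBC cells and 4.75% (3.75 to 5.93) of 5% pdRBC cells at 2000 UMIs, GEM in 1.96% (1.30 to 2.84) and 3.85% (2.95 to 4.93), and NFATC2 in 3.49% (2.58 to 4.60) and 6.49% (5.31 to 7.83). The intervals overlapped for TRIB1, with 4.07% (3.09 to 5.26) and 5.72% (4.62 to 6.99), and for AADAC, with 0.145% (0.0176 to 0.524) and 0.771% (0.399 to 1.34). In all, 6 of the 8 genes had non-overlapping intervals with the higher share under 5% pdRBC, beside 1.6% of the 11125 genes compared in this way. This again is the contrast on which the genes were picked. Free RNA in droplets could not be gauged from a cell type that should lack these genes, since nearly all cells were endothelial.

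**Figure D2:**
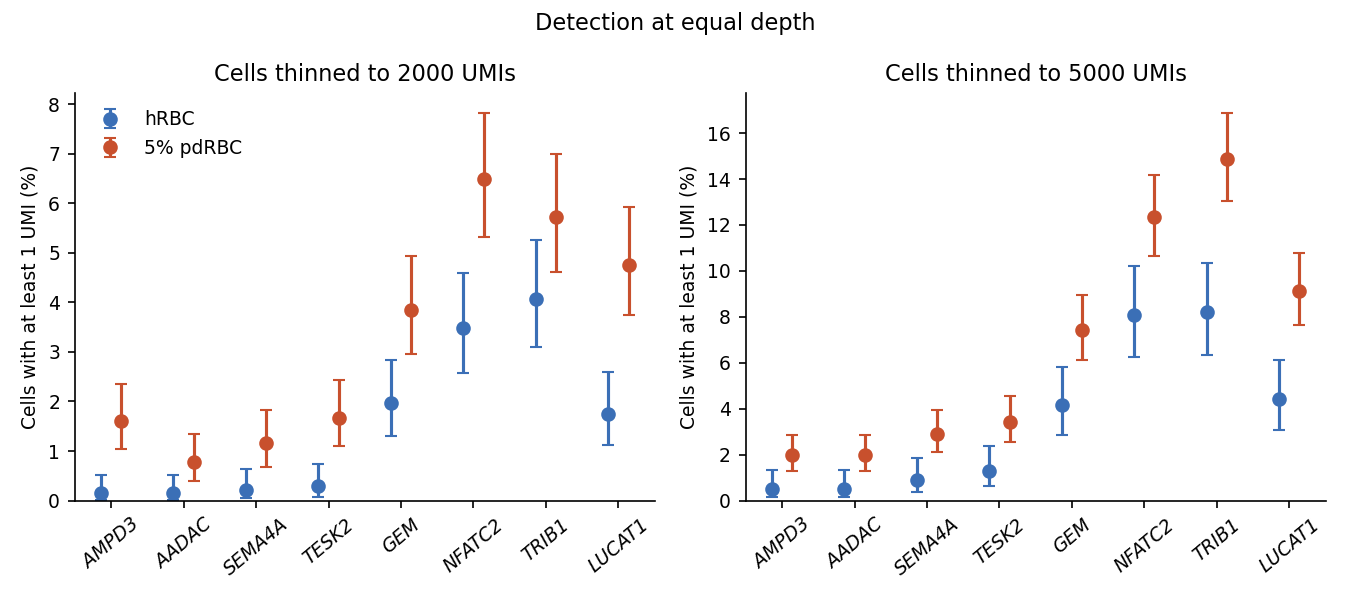
Share of cells with at least 1 UMI of each gene after thinning every cell to 2000 UMIs (left) or 5000 UMIs (right), in the hRBC library (blue) and the 5% pdRBC library (red). Bars are exact binomial 95% intervals. At 2000 UMIs the intervals overlap for AADAC and TRIB1 alone, and at 5000 UMIs for AMPD3 and AADAC alone.

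More cells held the genes, and those cells held more molecules on average. An hRBC cell with AMPD3 held 1.00 UMI of it on average, and a 5% pdRBC cell with AMPD3 held 1.87 and at most 6. For TESK2 the means were 1.03 and 1.75, for GEM 1.41 and 2.37, and for NFATC2 1.35 and 2.03. For AADAC they were closer, at 1.27 in 11 hRBC cells and 1.42 in 69 5% pdRBC cells. The highest GEM count was 11 UMIs in an hRBC cell, against 10 with 5% pdRBC. These means are at full depth. The hRBC and 5% pdRBC cells with a UMI had median totals of 13600 and 13924 for AMPD3, 11281 and 13458 for TESK2, 11932 and 12338 for GEM, and 11762 and 11086 for NFATC2, so the TESK2 cells were deeper with 5% pdRBC.

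Which cells carried the genes was asked within each library, at one depth. Cells of 5000 or more UMIs were thinned to 5000 UMIs, and a cell with at least 1 EGR1 UMI was called EGR1-positive. Of 1370 such 5% pdRBC cells 214 were EGR1-positive (15.6%, 13.7 to 17.7), and of 769 hRBC cells 25 were (3.25%, 2.11 to 4.76). The positive cells were not far from the negative ones in depth or quality. In the 5% pdRBC library their median UMI totals before thinning were 11519 and 10025, their mitochondrial shares 1.76% and 1.81%, and 8 of 10 endothelial markers were detected in the median cell of either kind.

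In the 5% pdRBC library every one of the 8 genes was concentrated in EGR1-positive cells. AMPD3 was detected in 22 of the 214 EGR1-positive cells (10.3%, 6.56 to 15.2) and in 5 of the 1156 EGR1-negative cells (0.433%, 0.141 to 1.01), a ratio of 23.8. SEMA4A was detected in 13.6% (9.27 to 18.9) and 0.952% (0.476 to 1.70), a ratio of 14.2, and TESK2 in 15.9% (11.3 to 21.5) and 1.12% (0.600 to 1.92), a ratio of 14.1. GEM was found in 30.8% (24.7 to 37.5) of EGR1-positive and 3.11% (2.19 to 4.29) of EGR1-negative cells. AADAC was found in 7.48% (4.33 to 11.9) and 0.952% (0.476 to 1.70).

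The other 3 genes were also more frequent in the EGR1-positive cells, but had a wider presence outside them. TRIB1 was detected in 38.8% (32.2 to 45.7) of EGR1-positive and 10.5% (8.76 to 12.4) of EGR1-negative cells, a ratio of 3.71. NFATC2 was detected in 34.6% (28.2 to 41.4) and 8.22% (6.70 to 9.95), and LUCAT1 in 22.9% (17.4 to 29.1) and 6.57% (5.21 to 8.16). PECAM1, which all endothelial cells transcribe, was detected in 90.2% and 92.6% of the same cells.

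The intervals of the 2 shares were apart, with the higher share in EGR1-positive cells, for 8 of the 8 genes and for 3.61% of the 11325 genes found in 20 or more 5% pdRBC cells. The choice of the 8 bears on this count. They were picked as higher in the library with more EGR1-positive cells (15.6% against 3.25%), and the 11325 genes were not. AMPD3, AADAC, SEMA4A and TESK2 reached 20 cells in that library alone. The median ratio was 8.88 over the 8 genes and 0.963 over all genes. When all genes were ordered by this ratio, ARC, an immediate early gene of neurons, came first at 25.9, AMPD3 at position 2, SEMA4A at 3, TESK2 at 4, GEM at 5 and AADAC at 10, with NFATC2 at 35, TRIB1 at 44 and LUCAT1 at 55. FOS (4.57) and ATF3 (5.58), which are themselves immediate early genes, had lower ratios than 5 of the 8. A sparse gene can reach a high ratio on few cells, and AMPD3, AADAC, SEMA4A and TESK2 were seen in only 27, 27, 40 and 47 of the cells.

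In the hRBC library the same question had 25 EGR1-positive cells to answer it. GEM was detected in 4 of them (16.0%, 4.54 to 36.1) and in 3.76% (2.52 to 5.39) of the EGR1-negative cells. NFATC2 was detected in 6 (24.0%, 9.36 to 45.1) and in 7.53% (5.74 to 9.66), TRIB1 in 5 and LUCAT1 in 3. SEMA4A was in 2 of the 25, while AMPD3, AADAC and TESK2 were in 0, which allows a share of up to 12% at 3 cells (exact interval up to 13.7%). GEM, NFATC2, TRIB1 and LUCAT1 were found in 20 or more hRBC cells, the minimum for this comparison, and the intervals of positive and negative cells were apart for 0 of these 4 and for 0.864% of the 10069 genes that met it. AMPD3, AADAC, SEMA4A and TESK2 were in 4, 4, 7 and 10 hRBC cells, too few to tell. For all 8 genes the interval in EGR1-positive hRBC cells also overlapped the one in EGR1-positive 5% pdRBC cells. With 25 hRBC cells that was so for nearly any gene: the 5% pdRBC share was higher with intervals apart for 0.339% of the 6792 genes found in 20 or more EGR1-positive cells. At this depth the shares cannot show whether the libraries differ within EGR1-positive cells.

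**Figure D3:**
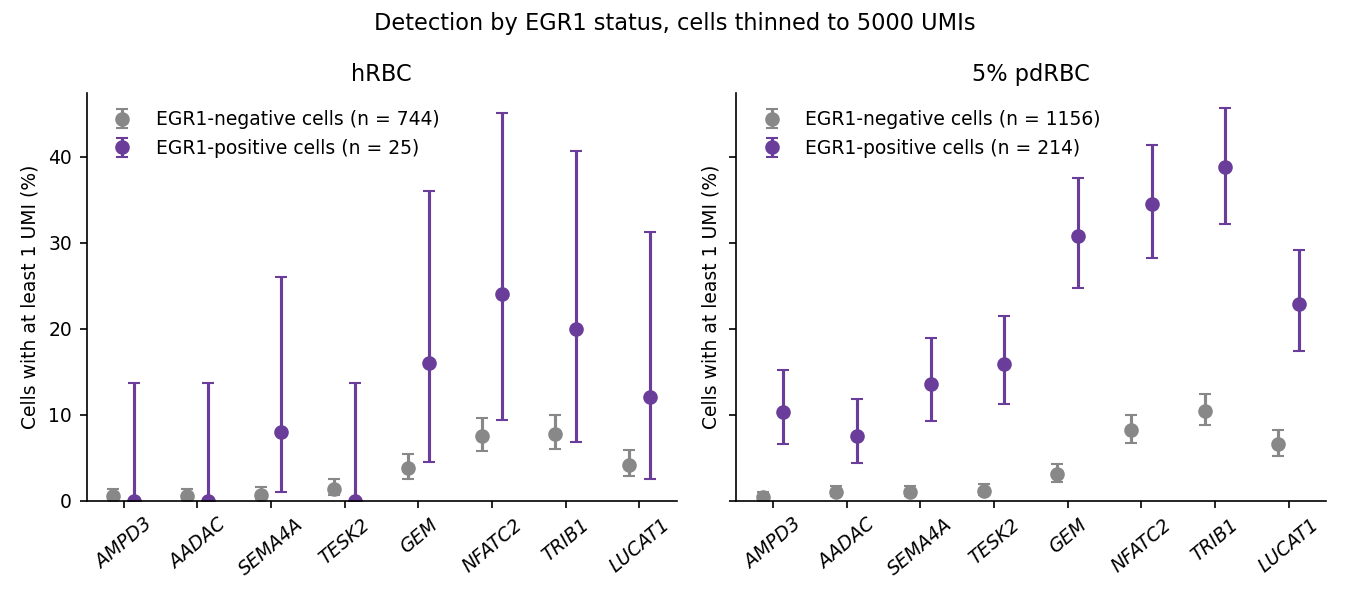
Share of cells with at least 1 UMI of each gene among EGR1-negative cells (grey) and EGR1-positive cells (purple), all thinned to 5000 UMIs, in the hRBC library (left) and the 5% pdRBC library (right). Bars are exact binomial 95% intervals. On the right the 2 classes are apart for every gene, from AMPD3 (0.433% and 10.3%) to TRIB1 (10.5% and 38.8%), and on the left the 25 positive cells give wide intervals.

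Counted by molecules, the EGR1-positive cells of the 5% pdRBC library held 17.2% of all UMIs in cells of this depth. They held 82.2% (73.7 to 89.0) of the AMPD3 UMIs, 72.6% (64.9 to 79.4) of those of TESK2, 72.3% (63.3 to 80.1) of SEMA4A, 71.6% (61.4 to 80.4) of AADAC and 71.2% (66.7 to 75.4) of GEM. Their part was 54.8% (50.8 to 58.8) for NFATC2, 53.9% (49.9 to 57.9) for TRIB1 and 47.8% (42.5 to 53.1) for LUCAT1. In the hRBC library, where EGR1-positive cells held 3.90% of all UMIs, they held 29.5% (21.6 to 38.4) of the GEM UMIs and 13.6% (9.14 to 19.1) of those of NFATC2. Their part was 13.7% (9.09 to 19.6) for TRIB1, 10.3% (5.41 to 17.2) for LUCAT1 and 36.8% (16.3 to 61.6) for SEMA4A, on 7 of 19 UMIs. AMPD3, AADAC and TESK2 had 1 UMI each in these 25 cells, with intervals that include 3.90%.

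Outside the EGR1-positive cells the folds between the libraries were smaller. Among EGR1-negative cells of 5000 or more UMIs, GEM stood at 9.02 CPM in 744 hRBC cells and 9.96 CPM in 1156 5% pdRBC cells, a fold of 1.10 (0.833 to 1.47), against 2.32 (1.90 to 2.87) in all cells of that depth. NFATC2 stood at 18.0 and 21.8 CPM, a fold of 1.21 (0.996 to 1.47). AMPD3 had a fold of 1.72 (0.742 to 4.69) on 8 and 19 UMIs, AADAC 1.96 (0.947 to 4.68) on 10 and 27, and TESK2 1.45 (0.855 to 2.57) on 22 and 43. These 5 intervals all include 1.

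The other 3 genes had intervals above 1, as did 15.9% of the 10454 genes measured in these cells. SEMA4A had a fold of 2.004 (1.04 to 4.37) in EGR1-negative cells on 12 and 33 UMIs, TRIB1 1.35 (1.11 to 1.65) and LUCAT1 1.34 (1.05 to 1.72). SEMA4A was the 1 gene of the 8 at 1.5-fold or more with an interval above 1, beside 1.56% of those genes. The median log2 fold of the 8 was 0.48 there and that of all genes 0.04. These values too come from the contrast on which the genes were picked. AMPD3, AADAC, SEMA4A and TESK2 had under 100 UMIs in these cells, so their folds are loose. EGR1 itself was 2.28-fold (1.58 to 3.41) higher in the negative cells at full depth. A cell with no EGR1 UMI among 5000 can hold some among all of its UMIs, so EGR1 was still counted in the negative cells of both libraries. Why its level differed between the libraries was not tested. When all cells with any EGR1 UMI were left out of the whole comparison, the median log2 fold of the 8 was 0.19. AMPD3 was then at -0.13 (-1.53 to 1.23) on 11 and 10 UMIs and GEM at -0.33 (-0.79 to 0.12) on 94 and 75 UMIs, so the direction of neither could be told. Of the 8, LUCAT1 alone had a fold interval above 1 there, with a log2 fold of 0.55 (0.21 to 0.89). The share of all genes with such an interval was not computed for these cells. In the EGR1-negative cells of 5000 or more UMIs it was 15.9%, so this 1 gene is not set apart by it. Among cells of 5000 or more UMIs with no EGR1 UMI, AMPD3 was at 0.31 (-1.25 to 2.10) on 6 and 10 UMIs and GEM at -0.36 (-0.86 to 0.15).

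Within EGR1-positive cells the levels were higher with 5% pdRBC for 6 of the 8 genes by intervals, though EGR1 was too. EGR1 stood at 142 CPM in the 25 hRBC cells and 382 CPM in the 214 5% pdRBC cells, a fold of 2.66 (2.05 to 3.59). LUCAT1 was at 31.0 and 64.8 CPM, 2.01-fold (1.16 to 4.12), TRIB1 at 64.7 and 125 CPM, 1.90-fold (1.29 to 3.03), and NFATC2 at 69.8 and 127 CPM, 1.79-fold (1.23 to 2.80). TESK2 gave 1 and 114 UMIs, a fold of 11.1 with a counting interval of 2.92 to 661, and AMPD3 and AADAC likewise had 1 UMI in the hRBC cells. GEM was at 93.1 and 118 CPM, 1.25-fold (0.898 to 1.85), and SEMA4A at 18.1 and 32.4 CPM, 1.68-fold (0.832 to 4.58), so that for these 2 no difference could be told. At 1.5-fold or more with an interval above 1 were the other 6 genes, beside 4.93% of the 4681 genes measured in these cells. This is again the contrast on which the genes were picked, and AMPD3, AADAC and TESK2 passed on 1 hRBC UMI each. AMPD3, AADAC and SEMA4A had under 100 UMIs there.

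A second way to order the cells used the summed UMIs of 20 immediate early genes at 5000 UMIs per cell. EGR1 is among the 20 and none of the 8 is, so this order is not separate from the split by EGR1. The classes were set at 0 to 4, 5 to 9, 10 to 19 and 20 or more UMIs. The top class held 40 of 769 hRBC cells (5.20%) and 232 of 1370 5% pdRBC cells (16.9%), with 4 and 15 of them right at its lower edge of 20 UMIs. In the 5% pdRBC library TESK2 was found in 0.418%, 1.43%, 0.882% and 15.1% of cells from the lowest class to the highest, and SEMA4A in 0.418%, 0.716%, 0.294% and 14.7%. GEM was found in 0.837%, 1.25%, 3.82% and 34.5%. For TESK2 and SEMA4A there was no slope below the top class and a step into it, and for GEM a shallow slope and the same step.

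NFATC2, TRIB1 and LUCAT1 had a base level in all classes. NFATC2 went from 7.95% in the lowest class to 5.55%, 10.3% and 36.2%, and TRIB1 from 8.37% to 7.87%, 14.4% and 39.2%. LUCAT1 was found in 2.51%, 5.01%, 11.2% and 22.8%, higher at each step, as GEM was. In the hRBC library the top class also had the highest share of GEM (8 of 40 cells, interval 9.05% to 35.6%), TRIB1 (also 8), NFATC2 (11, 14.6% to 43.9%), LUCAT1 (4, 2.79% to 23.7%) and AMPD3 (2, 0.611% to 16.9%). TESK2 and AADAC were in 0 of those 40 hRBC cells, which allows up to 7.5% at 3 cells (exact interval up to 8.81%). In the same class with 5% pdRBC they were in 15.1% (10.7 to 20.4) and 7.33% (4.33 to 11.5). Within the top class the intervals of the 2 libraries were apart for TESK2 alone of the 8, and for 0.39% of the 7181 genes found in 20 or more of these cells, among them 7 of the 8 (not AADAC). This too is the contrast on which the genes were picked.

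**Figure D4:**
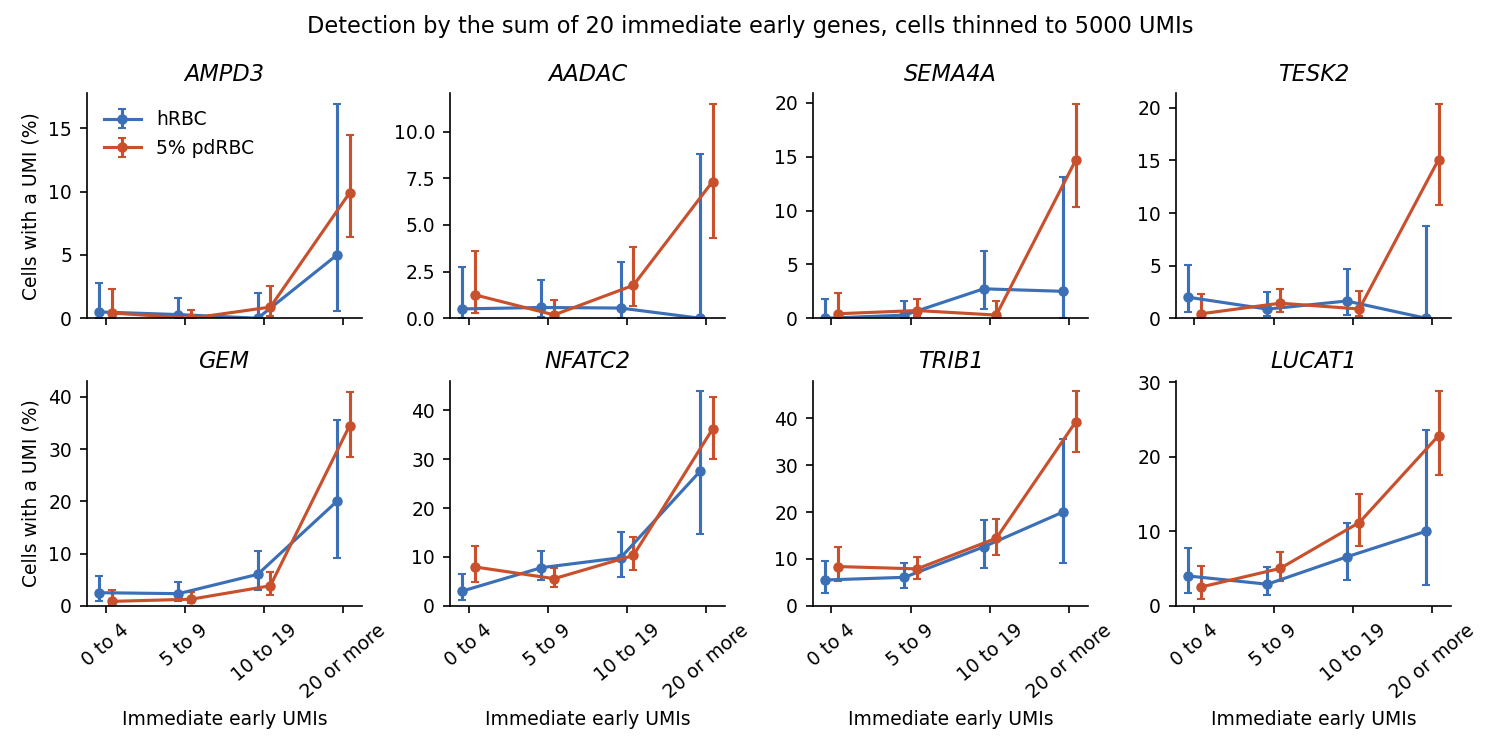
Share of cells with at least 1 UMI of each gene by the summed UMIs of 20 immediate early genes, in cells thinned to 5000 UMIs, for the hRBC library (blue) and the 5% pdRBC library (red). Bars are exact binomial 95% intervals. Below 20 immediate early UMIs the intervals of the libraries overlap for every gene, and in the top class (40 and 232 cells) the 5% pdRBC share is the higher point for all 8 genes, with intervals apart for TESK2 alone.

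The 8 genes also met in the same cells. In the 5% pdRBC library all 28 pairs of the genes occurred together in more cells than the product of their shares gives, by a median factor of 3.20 (1.62 for NFATC2 with LUCAT1, 13.0 for AMPD3 with TESK2). The product gave at least 1 cell for 23 of the pairs. AMPD3 and TESK2 were together in 12 cells, where the product gives 0.926, and all 12 were EGR1-positive. In the hRBC library 16 of the 28 pairs occurred together at all, the median factor was 1.33, and the product gave at least 1 cell for 6 pairs. TRIB1 and NFATC2, the most widespread, were together in 55 cells where the product of shares gives 25.2, and 38 of the 55 were EGR1-positive. At least 3 of the 8 genes were found in 74 of 1370 5% pdRBC cells (5.40%), 62 of them EGR1-positive, and in 4 of 769 hRBC cells (0.520%). At most 6 of the 8 were seen in 1 cell. These counts share cells and depth and are given as a description. The factor was not computed for pairs of other genes, so how far these pairs differ from ordinary ones was not tested.

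Across the 1370 thinned 5% pdRBC cells, the 3 genes most like each of the 8 in log counts were mostly immediate early genes. Pearson's r was highest with EGR1 for GEM (0.45) and LUCAT1 (0.25), with ZFP36, which destabilises inflammatory mRNAs, for TESK2 (0.38), AMPD3 (0.33) and SEMA4A (0.32), and with FOSB for NFATC2 (0.39) and TRIB1 (0.35). For AADAC it was highest with AADACL2-AS1 (0.34), the gene it overlaps, followed by EGR1 (0.23) and GEM (0.20). LUCAT1 was the 1 gene with a redox gene among its 3, SRXN1 (0.24), which codes for sulfiredoxin. In the 769 hRBC cells the same correlations were lower, for example 0.12 for GEM with EGR1, 0.23 for NFATC2 with FOSB and -0.01 for AADAC with AADACL2-AS1. All points share a library, and correlations of sparse counts are small by nature.

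To see where the genes lay among all cell states, the kept cells of both libraries were clustered on 2000 variable genes, none of which was among the 8. Of 12 clusters, cluster 4 (181 hRBC and 391 5% pdRBC cells) had AC012574.1, STC1, CHRNA7, EGR1 and GEM among its leading genes. It held 28.8% of all 5% pdRBC UMIs but 90.5% of the GEM, 83.9% of the AMPD3, 79.6% of the AADAC, 75.9% of the TESK2, 73.2% of the SEMA4A, 72.0% of the LUCAT1, 62.1% of the TRIB1 and 58.9% of the NFATC2 UMIs. EGR1 and other genes that differ between the libraries were not kept out of the clustering and may have shaped this cluster. Its size in each library is therefore not compared, and the folds given below, inside and outside it, carry the same limit.

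Inside cluster 4 the libraries still differed. GEM was at 26.3 CPM in hRBC cells and 87.9 CPM in 5% pdRBC cells, a fold of 3.32 (2.54 to 4.46), and TRIB1 at 29.8 and 86.4 CPM, a fold of 2.88 (2.23 to 3.80). NFATC2 had a fold of 2.83 (2.18 to 3.77), LUCAT1 2.68 (1.99 to 3.75), SEMA4A 6.84 (3.25 to 20.6) and TESK2 11.3 (5.16 to 38.8). AMPD3 gave 2 and 94 UMIs (18.6-fold, 6.21 to 193), and AADAC 1 and 78 UMIs (25.7-fold, 6.68 to 1532). All 8 intervals lay above 1, beside 13.4% of 7278 genes, and EGR1 was 9.92-fold (7.47 to 13.7) higher in the same cells. This is again the contrast on which the genes were picked, and AMPD3, AADAC and SEMA4A had under 100 UMIs there, unlike the 7278.

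Outside it few of the intervals left out 1. In cluster 1, which had 444 and 699 cells and was led by LINC02109, ATP2B3 and CCNO, NFATC2 stood at 18.8 and 19.9 CPM, a fold of 1.06 (0.802 to 1.40). LUCAT1 stood at 9.74 and 9.82 CPM there, a fold of 1.00 (0.680 to 1.51). GEM was lower with 5% pdRBC in that cluster, at 6.49 and 2.68 CPM (0.417-fold, 0.216 to 0.764), although EGR1 was 2.82-fold (1.83 to 4.62) higher. The GEM value rests on 30 and 18 UMIs, under the minimum for a measured gene. In all, 0 of the 8 intervals lay above 1 in cluster 1 and 1 below, beside 12.3% and 9.8% of 8945 genes.

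Cluster 5, led by LINC02296, MGP and PMCH (104 and 151 cells), had EGR1 at 11.8 and 11.9 CPM. There GEM was at 13.2 and 1.99 CPM, a fold of 0.164 (0.0370 to 0.456), and LUCAT1 at 8.09 and 1.99 CPM, a fold of 0.265 (0.0571 to 0.830). TRIB1 was the exception, at 8.09 and 20.4 CPM, a fold of 2.44 (1.27 to 5.44). It was also higher in cluster 0, which cell division genes led, at 14.5 and 30.1 CPM (2.06-fold, 1.26 to 3.47). TRIB1 was thus the 1 gene of the 8 with an interval above 1 in clusters 0 and 5, beside 9.13% and 9.07% of the genes measured in each. GEM and LUCAT1 were the 2 with an interval below 1 in cluster 5, beside 8.02%. In cluster 5 these intervals rest on 18 and 4 UMIs of GEM, 11 and 4 of LUCAT1 and 11 and 41 of TRIB1. In cluster 0 TRIB1 had 28 and 43. All of these sums are under the 100 UMIs that a measured gene needs, so the percentages come from better counted genes. For AMPD3, AADAC, SEMA4A and TESK2 the counts outside cluster 4 were too low to tell, for example 4 and 1 UMIs of AMPD3 in cluster 1.

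**Figure D5:**
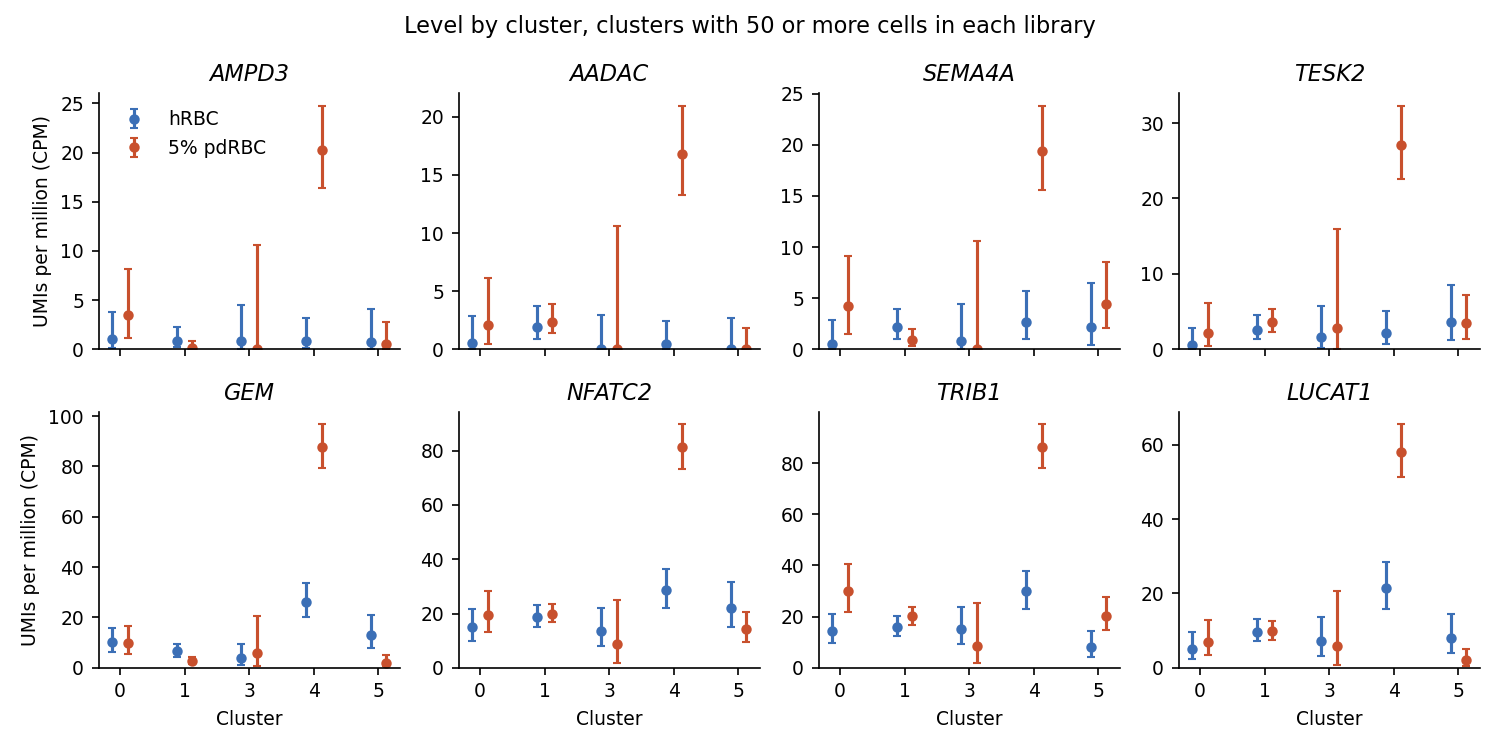
Level of each gene, in CPM, in the 5 clusters with at least 50 cells of each library, for hRBC (blue) and 5% pdRBC (red). Bars are exact 95% counting intervals. Cluster 4 holds the highest 5% pdRBC level of every gene, for example 87.9 CPM of GEM, whereas in clusters 1 and 5 GEM is lower with 5% pdRBC (2.68 and 1.99 CPM) than with hRBC (6.49 and 13.2 CPM).

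Few genes of the pathways and families around the 8 differed by 1.5-fold or more, and since the 8 were picked for their fold they are not set against these lists. Of 91 genes in 8 lists that accompany them, 72 were measured, and only RND3 was at least 1.5-fold higher with an interval above 1, which 1.55% of all genes were. At least 1.5-fold lower were 0, against 1.09% of all genes. By interval alone 22 of the 72 (30.6%) were higher and 8 (11.1%) lower, against 15.4% and 12.2% of all genes.

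Around AMPD3, its paralog AMPD2 stood at 23.9 CPM in both libraries, a fold of 1.00 (0.860 to 1.16), and AMPD1 had 0 and 3 UMIs. Of the 14 measured genes of AMP and adenosine handling, 2 were higher by interval, ENTPD1, which degrades extracellular ATP (1.4995, 1.15 to 1.97), and ADK (1.09, 1.03 to 1.15), and PNP was lower (0.861, 0.817 to 0.908). ADA was at 0.885 (0.753 to 1.04). Near AADAC, 5 of 11 esterases and lipases were measured and MGLL was lower (0.879, 0.828 to 0.932), while CES2, PNPLA2 and LIPA were at 1.02, 0.977 and 0.943 with intervals that include 1. AADACL2, a neighbour of AADAC, had 7 and 7 UMIs.

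Of 7 measured class 4 semaphorins and receptors, NRP1, a coreceptor, was higher (1.25, 1.17 to 1.33). SEMA4C (1.35, 0.974 to 1.91), PLXNB1 (1.26, 0.987 to 1.62) and SEMA4B (0.827, 0.659 to 1.04) had intervals that include 1. Among 11 measured genes of cofilin control, TESK1, the paralog of TESK2, was at 1.15 (0.953 to 1.38). SPRY4, which inhibits TESK1, was higher (1.497, 1.34 to 1.68), as were the cofilin phosphatase SSH1 (1.28, 1.18 to 1.38), LIMK1 (1.15, 1.03 to 1.29) and CFL2, and CFL1 was lower.

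GEM's relative RRAD gave 30 and 68 UMIs, under the minimum for a measured gene. Among other small GTPases and GEM partners on the list, RND3, an atypical GTPase that acts on the actin cytoskeleton, was higher (1.75, 1.62 to 1.89), as were KIF9 (1.15, 1.00 to 1.31) and RHOB (1.10, 1.08 to 1.13). RND1 was at 1.37 (0.991 to 1.93). Of 11 measured genes of the NFAT group, RCAN1, a feedback inhibitor of calcineurin that NFAT induces, was higher (1.37, 1.17 to 1.61). So were DYRK1A (1.17, 1.06 to 1.29), NFAT5 and PPP3R1, and NFATC4 was lower (0.799, 0.655 to 0.974). HOMER1 was at 1.18 (0.919 to 1.52).

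Of 7 measured genes around TRIB1, CEBPD (1.34, 1.07 to 1.68), CEBPB (1.18, 1.06 to 1.32) and MAP2K1 (1.11, 1.02 to 1.21) were higher, and TRIB2 was at 0.705 (0.465 to 1.06). Among 10 measured long noncoding RNAs set beside LUCAT1, MIR155HG (1.40, 1.28 to 1.54), MIR222HG (1.32, 1.17 to 1.48), HOTAIRM1 (1.25, 1.13 to 1.38), NEAT1 (1.22, 1.21 to 1.24) and MIR22HG were higher, and 3 were lower. Of 17 measured immediate early genes 15 were higher by interval and 10 at least 1.5-fold, against 15.4% and 1.55% of all genes. Among these 17 the largest folds were those of EGR1, FOS (3.99, 3.56 to 4.50), NR4A2 (3.87, 2.54 to 6.32) and ZFP36 (3.36, 2.92 to 3.89). The unmeasured genes of the list were EGR2 (3 and 1 UMIs), EGR3 (11 and 5) and NR4A3 (15 and 35).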

How the data were processed

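The deposited values are unnormalized UMI counts for each gene in each barcode, made by the authors with Cell Ranger 7.0.0 on GRCh38, per the submitters' processing notes. The annotation release is not given in the sources used here, nor is strand use. UMIs of all kept cells were summed per library and divided by the library total (CPM). A count of 0 allows 3 counts, or 0.225 CPM (hRBC) and 0.186 CPM (5% pdRBC). Fold intervals are exact Clopper-Pearson intervals of the UMI split between the libraries. Thinning drew UMIs without replacement (seed 1). Clusters came from Scanpy 1.11.5 (30 principal components, 15 neighbours, Leiden at resolution 0.5, python-igraph 0.11.9). Doublets were not called and were left in. Of the genes, 34616 (94.6%) matched GENCODE 29 by identifier. The 8 genes and all lists were chosen with earlier results of these data known. Named besides them are up to 4 genes per list with the largest absolute log2 fold, and per gene the 3 most correlated in 5% pdRBC cells (r of 0.15 or more, 50 or more cells). Other genes named, such as paralogs, AADACL2-AS1 and ARC, were chosen after their values were seen. Folds, intervals and thinning were tested on simulated data. Alternatives covered cell filters, weights, depth, scaling, gene minimum, reference gene and seeds. Some genes of the lists and of the clusters' leading genes are not reported here.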

Additional observations from a re-analysis of the deposited data

Results flagged for a closer look

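The barcodes left out by the cell filter were used in no comparison, and in the hRBC library they held more than the 3 UMIs that a count of 0 allows for 6 of the 8 genes. Among 986791 UMIs in 1303 such barcodes were 39 of NFATC2 (39.5 CPM, 28.1 to 54.0), 22 of TRIB1 (22.3 CPM, 13.97 to 33.8), 13 of LUCAT1 (13.2 CPM, 7.01 to 22.5), 12 of GEM (12.2 CPM, 6.28 to 21.2), 4 of SEMA4A (4.05 CPM, 1.10 to 10.4) and 4 of TESK2 (4.05 CPM, 1.10 to 10.4). In kept hRBC cells the levels were 19.05, 19.3, 10.9, 11.5, 1.65 and 2.55 CPM in the same order, so that the interval lay above the kept level for NFATC2 alone. AMPD3 and AADAC had 1 UMI each there. The 34 barcodes left out of the 5% pdRBC library held 30891 UMIs, with 3 of SEMA4A (97.1 CPM, 20.03 to 284, above the kept level of 7.63 CPM), 2 of GEM, 1 of TRIB1 and 0 of the other 5 genes.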

How the results depend on the processing

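No paired analysis was possible because each group is 1 library and the labels give no replicate numbers, and for the same reason no replicate could be left out. Of 80 values of single genes under 10 alternatives, 65 stayed within their counting interval, 13 moved outside it in the same direction and 2 turned, namely AMPD3 (log2 fold -0.13) and GEM (-0.33) without cells that held an EGR1 UMI, both with intervals that include 0. The median log2 fold of the 8 was 1.44 to 1.90 under the other alternatives and 0.19 without those cells. The number of genes at least 2-fold higher, 30, became 46 with every cell weighted equally, 13 with cells thinned to 2000 UMIs, 5 without EGR1-positive cells, and 148 or 10 at a gene minimum of 20 or 500 UMIs. Genes of the 8 with a higher share of cells at equal depth numbered 4 to 7, and 8 without thinning, where depth is not equal. Those more frequent in EGR1-positive 5% pdRBC cells numbered 7 to 8, AADAC failing at 2000 UMIs and with FOS as reference. In hRBC cells the count was 1 instead of 0 at 2000 UMIs, with another seed and with FOS-positive cells in place of EGR1-positive ones. In EGR1-negative cells the median log2 fold was 0.26 to 0.48. The causes of these moves were not tested. With 14 to 34 hRBC UMIs, AMPD3, AADAC, SEMA4A and TESK2 are limited by depth.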

Other observations

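Cluster 10, which IFI6, TEX14, ENTPD1, CCL14 and FOS led, had 17 cells, all from the 5% pdRBC library, so it may be a feature of that library rather than a cell state. It held 44 NFATC2 UMIs (336 CPM, 244 to 451), 8 of SEMA4A (61.1 CPM, 26.4 to 120) and 7 of AMPD3 (53.5 CPM, 21.5 to 110), with EGR1 at 244 CPM (167 to 345). GEM, LUCAT1 and AADAC were at 0 there, which allows up to 22.9 CPM, whereas GEM and LUCAT1 stood at 87.9 and 58.1 CPM in cluster 4 of the same library, where EGR1 was at 207 CPM. In that small cluster not all of the genes were detected beside EGR1. Cluster 6, led by CEP128, NCAPG2 and PRIM2, had LUCAT1 at 82.5 CPM in 57 5% pdRBC cells (15 UMIs) and 0 UMIs in 43 hRBC cells, which allows up to 25.3 CPM. These clusters were singled out after their values were seen.

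Among the genes most tied to EGR1-positive 5% pdRBC cells were others that are neither among the 8 nor in the immediate early list: ARC (24 of 214 EGR1-positive and 5 of 1156 EGR1-negative cells), LINC02392 (16 and 9 cells), GALM, a sugar epimerase (14 and 8 cells), LINC00161 (34 and 20 cells) and AC015819.2 (16 and 10 cells).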
